A study of Mus musculus with 2 samples.

Results

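Genes of 7 solute carrier families (Slc1, Slc3, Slc6, Slc7, Slc36, Slc38 and Slc43), the families that hold most of the plasma membrane carriers of amino acids, were followed in mouse uterus at gestation day 2.5. A gene was taken as a member when its symbol in the deposited table began with the name of one of these families, and 45 of the 14678 genes of the table did. Of the 45, 6 were Slc1 genes, 1 Slc3, 10 Slc6, 13 Slc7, 3 Slc36, 9 Slc38 and 3 Slc43. Not every member carries amino acids. Slc6a2 and Slc6a4 take up noradrenaline and serotonin, Slc6a8 creatine and Slc43a3 purine nucleobases, and Slc7a6os is a gene on the opposite strand next to Slc7a6 and not a carrier.

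Mice of both groups were double transgenic, of the genotype VEGFtetO/tetO/beta-AKtg/wt, and carry tet operators in the promoter of VEGF and a tetR-Krab repressor driven by the β-actin promoter. Dox+ mice received doxycycline in the chow, which releases the repressor, and are labelled VEGF-normal. Dox- mice received chow without the drug and are labelled VEGF-repression. The line was propagated on doxycycline food, and the drug was removed some weeks before the uteri were taken. The repressor is made in all tissues, so the repression was not confined to the uterus, and removal of the drug and repression of VEGF cannot be told apart in this design. Females of both groups were littermates, analyzed within the same range of ages and mated with VEGFtetO/tetO males. Total RNA of 3 uteri was pooled for each group and 1 library per group was sequenced, so that no difference has a replicate check. The values are copy numbers, the tags counted for a gene, out of 5985925 clean tags in Dox+ and 5844314 in Dox-. Vegfa, the repressed gene, was called lower in Dox- by the rule given below and fell from 247 to 125 copies, 1.93-fold (95% counting interval 1.55 to 2.41).

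Amino acid carriers work as pairs of complementary systems. Sodium-coupled carriers of the Slc38 and Slc6 families accumulate amino acids in the cell, and exchangers such as those of the Slc1 and Slc7 families then trade them for others, such as leucine or cystine. Some Slc7 proteins reach the membrane only when bound to a heavy chain, Slc3a2 (CD98) or Slc3a1. In cells short of amino acids or under stress of the endoplasmic reticulum, the transcription factor ATF4 raises the transcription of several carriers, among them Slc7a11 and Slc38a2. The fluid of the uterine lumen, to which the epithelium adds amino acids, bathes the embryo before implantation.

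ATF4 binds, with partners of the C/EBP family, a composite element, and the letters TGATGNAA (TTNCATCA on the other strand) were used here as its short form. The 4 stretches below are shown because each holds these letters close to the transcription start: 2 members with more copies in Dox-, Slc7a11 and Slc1a4, 1 member with like copies in both libraries, Slc7a7, and Asns, the asparagine synthetase gene, as a textbook target. They are RefSeq promoter sequences of GRCm38.p6 on the minus strand, from 120 bases before to 10 bases after the annotated start, at chr3:50443604-50443733, chr11:20332704-20332833, chr14:54417935-54418064 and chr6:7693200-7693329. Capitals mark the matches.
Slc7a11: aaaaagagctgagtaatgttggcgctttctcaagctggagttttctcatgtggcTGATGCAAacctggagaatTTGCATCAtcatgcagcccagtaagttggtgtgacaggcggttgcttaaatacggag
Slc1a4: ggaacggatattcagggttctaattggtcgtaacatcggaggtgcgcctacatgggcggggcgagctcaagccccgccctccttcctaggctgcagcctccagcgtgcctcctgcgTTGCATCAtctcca
Slc7a7: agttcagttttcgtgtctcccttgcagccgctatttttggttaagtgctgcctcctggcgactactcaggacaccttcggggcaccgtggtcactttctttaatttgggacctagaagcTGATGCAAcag
Asns: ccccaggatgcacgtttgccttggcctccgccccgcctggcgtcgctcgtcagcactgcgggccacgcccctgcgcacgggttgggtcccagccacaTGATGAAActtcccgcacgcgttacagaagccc

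Slc7a11 held the letters at 2 places, beginning 66 and 47 bases before the start and facing opposite ways. Promoter windows of 300 bases, from 250 before to 50 after a start, were found by gene identifier for 33 of the 45 members, and 3 of the 33 genes (9.09%) held the letters. Over the whole RefSeq table, 1219 of 27025 genes (4.51%) did. The motif was chosen with the values known. A match describes the letters alone. Slc7a7, which holds them 1 base before its start and again 141 bases before it, outside the stretch shown, had 35 copies in Dox+ and 32 in Dox-. No match was found in the windows of Slc7a1, Slc38a2 and Slc43a2.

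Across the 45 genes, 17 had a combined copy number of at least 200, the minimum of the study for a comparison. Of these, 4 were called higher in Dox- (Slc7a11, Slc7a1, Slc38a2 and Slc7a5), 4 were called lower (Slc6a2, Slc7a2, Slc43a3 and Slc6a6), and 9 were not called. A gene was called when it passed an FDR below 0.05 in the Audic-Claverie test of the tag counts and differed at least 1.5-fold. The test takes counting error as its sole error, so it compares the libraries, not the conditions. By the same rule 15.2% of the 6547 genes of the table with enough copies were called higher and 14.7% lower, against 23.5% and 23.5% of the 17. In either direction 8 of the 17 (47.1%) and 29.9% of all genes were called. The median log2 ratio, Dox- over Dox+, was 0.04 over the 17 members and 0.03 over all genes compared. The median of the absolute log2 ratio was 0.51 for the members and 0.38 for all genes. The calls of the members thus ran both ways, and their median lay near that of all genes.

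No library repeats another, so the calls depend on how far pools of like mice would differ, which is not known here. With an assumed coefficient of variation of 0.2 between pools in edgeR, 3 of the 17 members (Slc7a11, Slc7a1 and Slc38a2) were called higher and 2 (Slc7a2 and Slc6a2) lower, beside 2.25% and 2.66% of all genes. With 0.4, 0 members were called either way, beside 0.244% and 0.26% of all genes. At a fold of at least 2, 3 members were called higher and 3 lower, without Slc7a5 and Slc6a6, beside 4.61% and 5.62% of all genes. With an absolute log2 ratio above 0.5 in place of 1.5-fold, Slc7a6 was also called higher, so that 5 were higher and 4 lower, beside 18.8% and 17.8%.

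**Figure D1:**
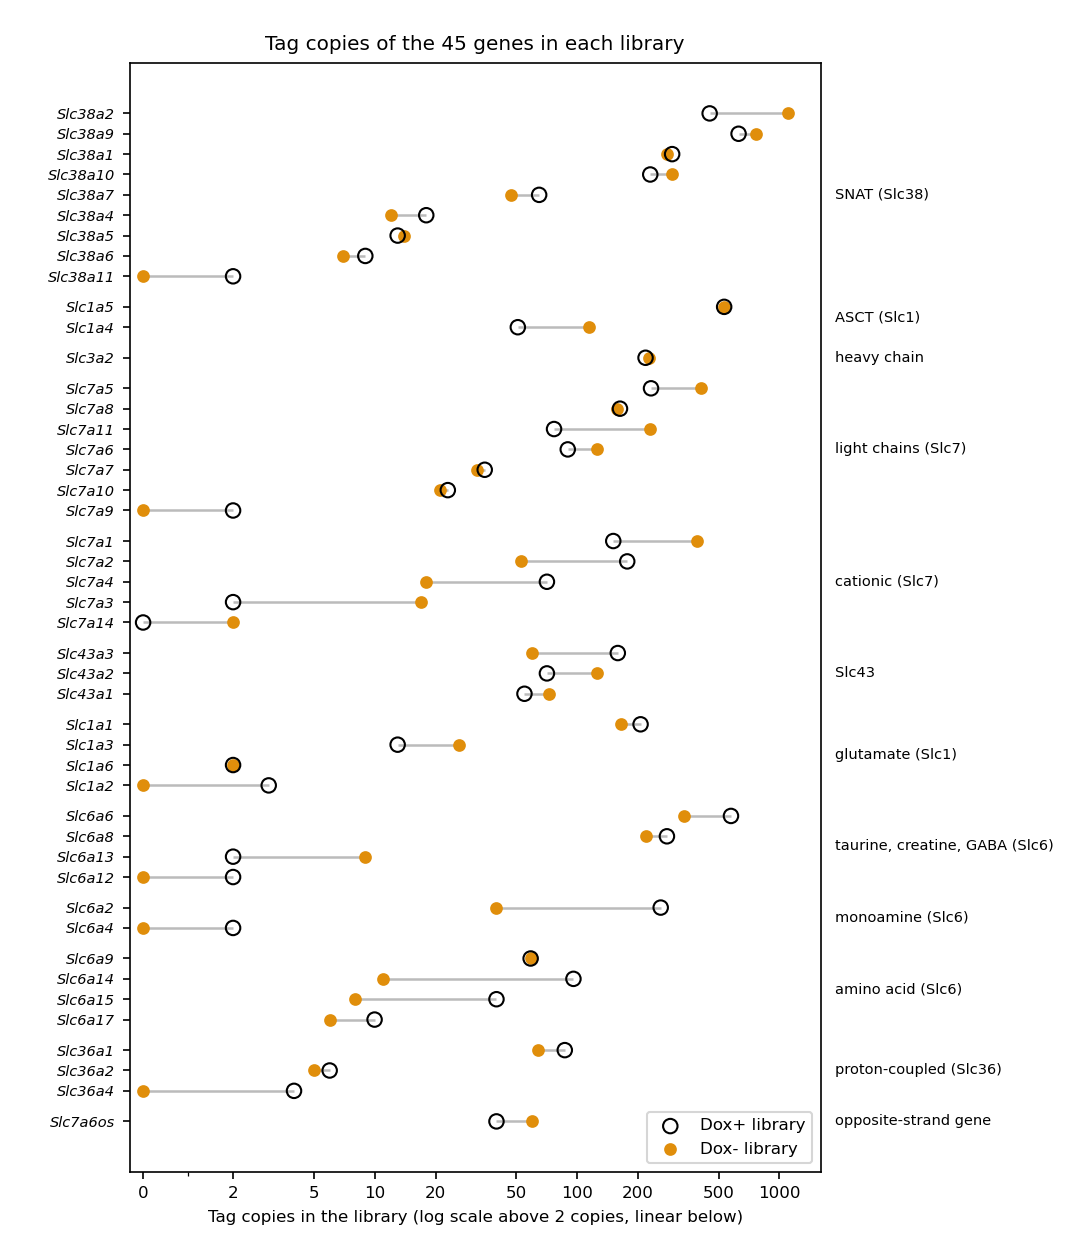
Tag copies of the 45 genes (one row each, grouped by role) in the Dox+ library (black rings) and the Dox- library (orange dots), on an axis that is logarithmic above 2 copies. Slc38a2 has the widest gain in copies, from 452 to 1106, while Slc6a2 goes from 259 to 40 and Slc1a5 stays at 533 and 535.

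**Figure D2:**
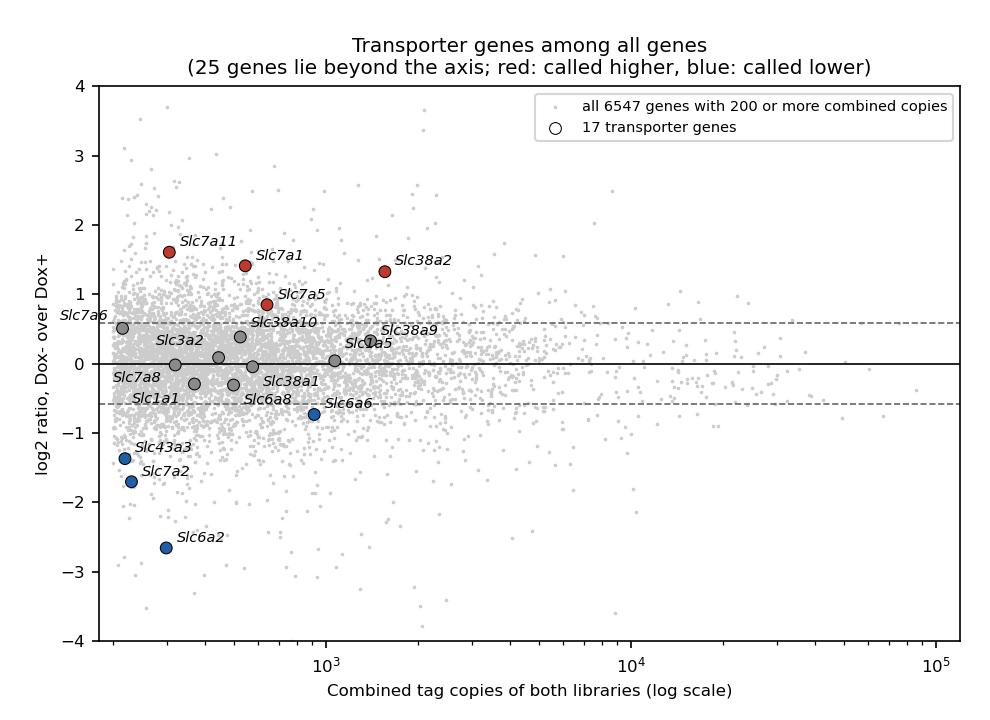
The log2 ratio, Dox- over Dox+, against the combined copies of both libraries (log scale) for the 6547 genes with at least 200 combined copies (grey), with the 17 transporter genes outlined in black (red called higher, blue called lower, grey not called). Dashed lines mark 1.5-fold, 25 genes lie beyond the vertical axis, and the 17 genes run from -2.66 (Slc6a2) to 1.61 (Slc7a11).

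Among the sodium-coupled neutral amino acid carriers of the Slc38 family, 1 of the 4 genes with enough copies rose and none fell. Slc38a2 (SNAT2), which takes up alanine, glutamine and other small neutral amino acids and is induced when amino acids are scarce, had 452 copies in Dox+ and 1106 in Dox-. It rose 2.51-fold (2.24 to 2.80). The gene lies on chromosome 15 (96517825 to 96530129, minus strand, NCBIM37). Its neighbour Slc38a1 (SNAT1, 96401849 to 96473344), a close relative, had 295 and 279 copies, a fold of 0.969 with an interval from 0.819 to 1.14. The copy ratio of Slc38a2 to Slc38a1 was 1.53 in Dox+ and 3.96 in Dox-, and these ratios differed 2.59-fold (2.11 to 3.17).

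Slc38a9, the lysosomal protein that reports arginine to mTORC1, had 628 and 770 copies, 1.26-fold (1.13 to 1.4), which is short of the 1.5-fold that a call needed. Slc38a10 had 230 and 293 copies, 1.3-fold (1.09 to 1.56). Both intervals lie above 1, so the tags of these genes took a larger share of the Dox- library than counting error alone gives. The other 5 genes of the family had fewer than 200 combined copies. Slc38a7, a lysosomal carrier of glutamine and asparagine, had 65 and 47 copies, Slc38a4 18 and 12, Slc38a5 13 and 14 and Slc38a6 9 and 7, each with an interval that holds 1. Of Slc38a11 the Dox+ library held 2 copies and the Dox- library 0.

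The obligate exchangers of small neutral amino acids in the Slc1 family differed from each other. Slc1a5 (ASCT2), a main route of glutamine into growing cells, had 533 copies in Dox+ and 535 in Dox-, 1.03-fold (0.910 to 1.16). Slc1a4 (ASCT1), which exchanges alanine, serine and cysteine, had 51 and 114 copies, 2.29-fold more in Dox- (1.63 to 3.25), and too few combined copies for a call. The ratio of Slc1a4 to Slc1a5 was 0.0957 in Dox+ and 0.213 in Dox-, a 2.23-fold difference (1.55 to 3.23). Slc1a4 lies on chromosome 11 (20202183 to 20232716), and its promoter is one of those printed above.

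The heavy chain Slc3a2, which carries several light chains to the membrane, had 218 copies in Dox+ and 226 in Dox-, 1.06-fold (0.878 to 1.28). Of the light chains with enough copies, 2 rose, and the other 2 were not called. Slc7a11 (xCT), which imports cystine in exchange for glutamate and so feeds glutathione synthesis, had 77 and 229 copies. It rose 3.05-fold (2.34 to 4.0), the largest rise among the 17 genes (chromosome 3, 50168858 to 50247535). Slc7a5 (LAT1), the exchanger of leucine and other large neutral amino acids, had 232 and 408 copies and rose 1.80-fold (1.53 to 2.13). Slc7a8 (LAT2), its closest functional counterpart, had 163 and 157 copies, a fold of 0.987 (0.787 to 1.24), and Slc7a6 90 and 125, 1.42-fold (1.08 to 1.89).

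The ratio to the shared heavy chain differed between the libraries for 2 of the 4 light chains. For Slc7a5 the copy ratio to Slc3a2 was 1.06 in Dox+ and 1.81 in Dox-, and for Slc7a11 it was 0.353 and 1.01. These ratios differed between the libraries 1.70-fold (1.32 to 2.19) and 2.86-fold (2.06 to 4.0). The ratio of Slc7a8 to Slc3a2 differed 0.929-fold (0.690 to 1.25) and that of Slc7a6 1.34-fold (0.952 to 1.89), and both intervals hold 1. Between the LAT genes, the ratio of Slc7a5 to Slc7a8 went from 1.42 to 2.60, a difference of 1.82-fold (1.38 to 2.42). The difference of a ratio between libraries needs no correction for transcript length, since it compares the same pair of genes. In all, 8 such pairs were compared, chosen with their copies known.

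**Figure D3:**
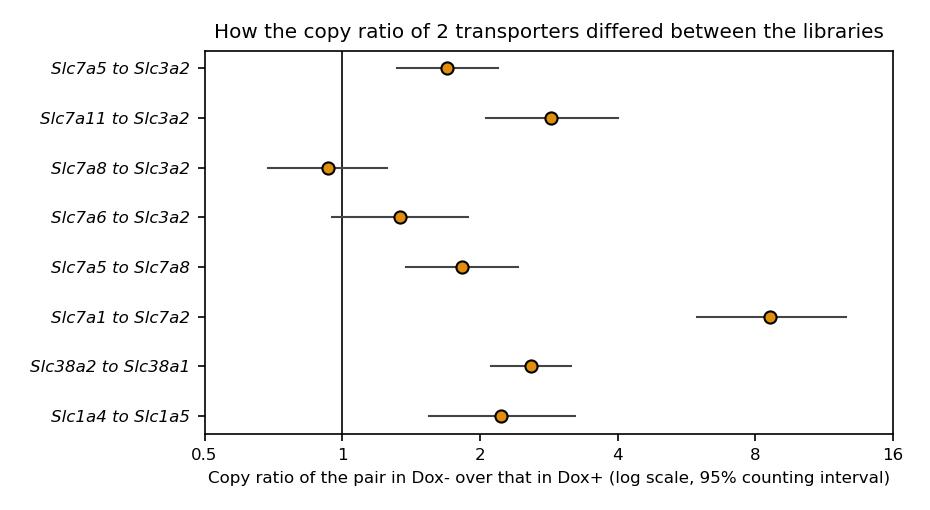
For 8 pairs of members, the copy ratio of the first gene to the second in Dox- divided by the same ratio in Dox+ (points, log axis), with exact 95% counting intervals (lines). The pair Slc7a1 to Slc7a2 stands farthest from 1, at 8.64, and the intervals of Slc7a8 to Slc3a2 and Slc7a6 to Slc3a2 cross 1.

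Further light chains were found at low copy numbers. Slc7a7, the partner of Slc3a2 in the export of arginine and lysine, is given above, and Slc7a10, which carries small neutral amino acids such as glycine and D-serine, had 23 and 21 copies. Slc7a9, the light chain of the heavy chain Slc3a1 in kidney, had 2 and 0 copies.

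The cationic amino acid carriers moved in opposite directions. Slc7a1 (CAT1), the widely expressed carrier of arginine and lysine, had 151 copies in Dox+ and 392 in Dox-, and it rose 2.66-fold (2.20 to 3.23; chromosome 5, 149138986 to 149211480). Slc7a2 (CAT2), a second arginine carrier that is prominent in liver and in activated macrophages, had 177 and 53 copies and fell 3.26-fold (2.39 to 4.52; chromosome 8, 41947750 to 42007662). Their copy ratio was 0.853 in Dox+ and 7.40 in Dox-, and it differed 8.64-fold (5.97 to 12.7), the largest of the 8 pairs. The summed copies of the 5 genes of this role came to 401 and 482, or 67.0 and 82.5 tags per 1000000 clean tags (TPM).

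The relatives of these carriers had few tags. Slc7a4, for which no carrier activity is firmly known, had 71 and 18 copies, 3.85-fold fewer in Dox- (2.27 to 6.87). Slc7a3 (CAT3), best known from brain, had 2 copies in Dox+ and 17 in Dox-. The ratio was 8.71 with an interval as wide as 2.07 to 77.7, and 5.80 with the 2 copies set to 3, as in the calls. Slc7a14 had 0 and 2.

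In the Slc43 family the purine nucleobase carrier fell, and neither amino acid carrier had enough copies for a call. Slc43a3 had 159 copies in Dox+ and 60 in Dox- and fell 2.59-fold (1.91 to 3.54; chromosome 2, 84776736 to 84798666). Slc43a1 (LAT3), which lies next to it on chromosome 2 (84679007 to 84703751) and carries large neutral amino acids by facilitated diffusion, had 55 and 73 copies, 1.36-fold (0.945 to 1.97). Slc43a2 (LAT4), of the same function, had 71 and 126 copies, 1.82-fold more in Dox- (1.35 to 2.47), with 197 combined copies just under the minimum for a call.

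**Figure D4:**
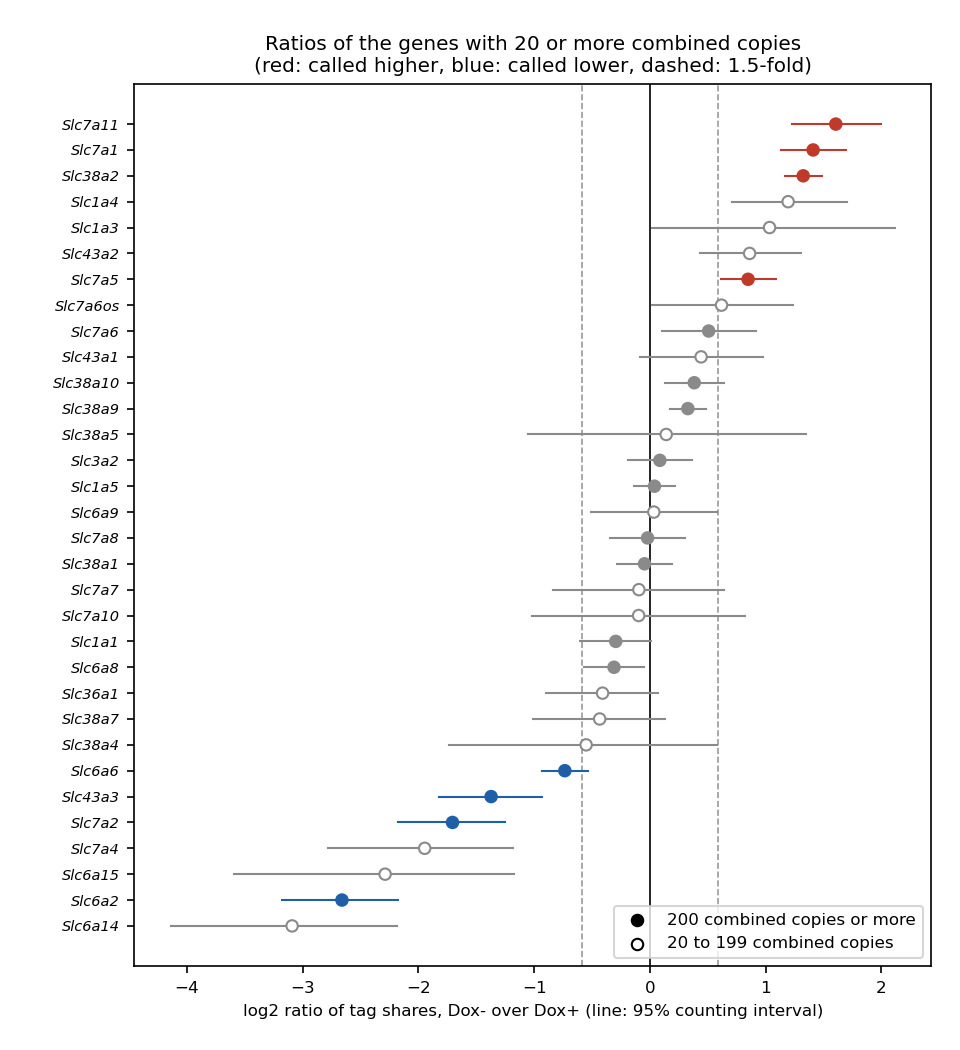
The log2 ratio, Dox- over Dox+, of the 32 genes with at least 20 combined copies, with 95% counting intervals (filled points: at least 200 combined copies, open points: fewer, red called higher, blue called lower). Slc7a11, Slc7a1 and Slc38a2 lie highest with overlapping intervals, and Slc6a14 and Slc6a2 lie lowest, at -3.09 and -2.66.

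Of the Slc6 family, 3 genes had enough copies, 2 of them fell and none rose. Slc6a2, the noradrenaline transporter, had 259 copies in Dox+ and 40 in Dox-. It fell 6.32-fold (4.52 to 9.06), the largest fall among the 17 genes (chromosome 8, 95483978 to 95525566). Slc6a6, the taurine transporter, which also serves to balance cell volume, had 576 and 338 copies and fell 1.66-fold (1.45 to 1.91; chromosome 6, 91634061 to 91709057). Slc6a8, the creatine transporter, had 278 and 219 copies, 1.24-fold fewer in Dox- (1.03 to 1.49), and was not called.

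Slc6a2 is best known from noradrenergic nerve endings, and a list of 10 markers of such nerves was set beside it. Of these, 4 were found, with 66 summed copies in Dox+ and 28 in Dox-. Dbh, the enzyme that makes noradrenaline, had 4 and 6 copies, and Slc18a2, the vesicular monoamine transporter, 3 and 0. Prph, an intermediate filament protein of nerve cells, had 11 and 0. The other marker found, Uchl1, had 48 and 22 copies, and none of the 4 had enough copies for a call. The part of nerve fibres in its fall was not tested. Slc6a4, the serotonin transporter, had 2 and 0.

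The amino acid carriers of the Slc6 family had too few combined copies for a call, and 2 of them had far fewer in Dox-. Slc6a14, an epithelial carrier that accepts neutral and cationic amino acids, had 96 copies in Dox+ and 11 in Dox-, 8.52-fold fewer (4.56 to 17.6; chromosome X, 21292022 to 21319481). Slc6a15, a carrier of branched-chain amino acids and proline, had 40 and 8 copies, 4.88-fold fewer (2.25 to 12.1). Slc6a9, the glycine transporter that preimplantation embryos also use, had 59 copies in both libraries, and Slc6a17, a carrier of synaptic vesicles, had 10 and 6. Summed over the 4 genes, the copies were 205 and 84. Among the GABA and betaine transporters, Slc6a13 had 2 and 9 copies and Slc6a12 2 and 0.

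Of the glutamate and proton-coupled carriers, only Slc1a1 had enough copies for a call, and it was not called. Slc1a1 (EAAC1), a transporter of glutamate and cysteine, had 206 and 164 copies, 1.23-fold fewer in Dox- (0.994 to 1.51). Slc1a3, a glial glutamate transporter, had 13 and 26 copies, 2.05-fold more (1.02 to 4.34). Slc1a2, its partner in glia, had 3 and 0, and Slc1a6, of cerebellar neurons, 2 and 2. Slc36a1, which exports amino acids from the lysosome together with protons, had 87 and 64 copies, 1.33-fold fewer (0.95 to 1.86). Slc36a2 had 6 and 5 copies and Slc36a4 4 and 0. Slc7a6os had 40 and 60 copies, 1.54-fold more (1.01 to 2.35). It lies 3′ of Slc7a6 on chromosome 8, on the other strand, from 108724338 to 108734833, with no overlap of the annotated genes.

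Summed over the 45 genes, the members had 5507 copies in Dox+ and 6127 in Dox-, or 920 and 1048 TPM. By family the sums of the larger ones went different ways. The 9 Slc38 genes had 1712 and 2528 copies, the 13 Slc7 genes 1063 and 1514, and the 10 Slc6 genes 1324 and 690. These sums rest on few genes, since Slc38a2 gave 1106 of the Slc38 copies in Dox- and Slc6a2 and Slc6a6 gave 259 and 576 of the Slc6 copies in Dox+. The median gene of the 45 had 59 copies in Dox+ and 47 in Dox-, and 1 gene in Dox+ and 6 in Dox- were at 0.

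When no minimum of copies was set, 3 more members were called higher in Dox- (Slc1a4, Slc43a2 and Slc7a3) and 3 more lower (Slc6a14, Slc6a15 and Slc7a4). With these, 7 of the 45 were called higher and 7 lower, 15.6% each, against 13.9% and 14.2% of all 14678 genes. With a minimum of 20 combined copies, 6 of 32 members were called higher and 7 lower, against 15.9% and 15.6%. Of the 28 members under the minimum, 7 had 3 copies or fewer in both libraries, so no fold was taken for them, and 3 had 3 or fewer in 1 library. A count of 0 allows up to 3 copies, a level of 0.501 TPM for the Dox+ library and 0.513 for the Dox- library.

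The libraries also differed in markers of the cell types of the uterus, and these values stand beside all of the ratios above. For each count of calls, 15.2% of all genes were called higher and 14.7% lower. Of 15 epithelial markers with enough copies, 9 were called higher in Dox- and 2 lower (Cldn3 and Cldn4), with a summed level of 1503 TPM in Dox+ and 2482 TPM in Dox-. None of the 16 listed epithelial markers was at 0. The 8 smooth muscle markers summed to 8022 and 5383 TPM, with 4 called lower. Of 11 stromal markers, 4 were called lower and 1 higher, and their median log2 ratio was -0.41. Their sums were 9158 and 10228 TPM, but without Col1a1 they were 5313 and 4463 TPM. With the counted tags as library size Col1a1 was called higher and Vim was not called lower, which gave 2 higher and 3 lower. The 8 endothelial markers summed to 212 and 144 TPM, with 2 of 3 called lower. Cdh5, Tie1, Emcn, Tek and Esam had fewer copies in Dox-. Pecam1 (243 and 253 copies), Eng (92 and 104) and Kdr (10 and 17) did not. The 10 leukocyte markers summed to 125 and 203 TPM, with 1 of 3 called higher. For the 7 platelet and erythroid markers found of 9 listed the sums were 20.9 and 31.3 TPM, with none tested, and for the 5 adipocyte markers found of 6 they were 263 and 205 TPM, with 1 of 3 called lower (Adipoq). With an assumed coefficient of variation of 0.2 between pools, 7 epithelial markers were called higher and 1 lower, and 3 stromal markers lower. Of all genes, 2.25% were then called higher and 2.66% lower, and no marker of the other types was called. With 0.4 no marker was called. In whole uterus, fewer cells of a type and less RNA per cell cannot be told apart, and the part of cell composition in the ratios of the carriers was not tested.

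A list of 23 genes of the amino acid response, with no member among them, was set beside the carriers. The list held Atf4, targets and partners of ATF4, and Eif2ak4, a kinase upstream of ATF4. The part of ATF4 in the ratios of the carriers was not tested. Of the 14 with enough copies, 8 rose in Dox- and none fell, where 15.2% of all genes were called higher and 14.7% lower. The median log2 ratio of the list was 0.84. With an assumed coefficient of variation of 0.2 between pools, 1 of the 8 (Cebpb) was still called, and with 0.4 none was. Of all genes, 2.25% were called higher with 0.2 and 0.244% with 0.4. The call of Vegfa was lost under both settings. Atf4 itself had 536 copies in Dox+ and 902 in Dox- and rose 1.72-fold (1.55 to 1.92). Cebpb, a partner of ATF4, rose from 258 to 692 copies, 2.75-fold (2.38 to 3.18), and Atf5, a related factor, from 596 to 1252, 2.15-fold (1.95 to 2.38).

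Ddit3 (CHOP), a factor of the stress response, rose from 108 to 258 copies, 2.45-fold (1.95 to 3.09). The enzymes of serine synthesis Psat1 and Psph rose 1.94-fold (1.75 to 2.14) and 2.41-fold (1.86 to 3.13). Asns, with 282 and 513 copies, rose 1.86-fold (1.61 to 2.16), and Nupr1 had 80 and 146, a rise of 1.87-fold (1.41 to 2.49). Both Asns and Nupr1 were picked out with their values known. The 6 genes not called were Eif4ebp1, Mthfd2, Shmt2, Cebpg, Aldh18a1 and Eif2ak4. Mthfd2, a mitochondrial folate enzyme and a usual target, had 542 and 499 copies. In the promoter windows, 6 of the 21 genes of this list that were found (28.6%) held the letters of the motif, beside 4.51% of all genes. They were Asns, Atf3, Chac1, Nupr1, Pycr1 and Trib3. The list was drawn up around known targets of ATF4, so its share rests on that choice and tells nothing about these libraries.

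**Figure D5:**
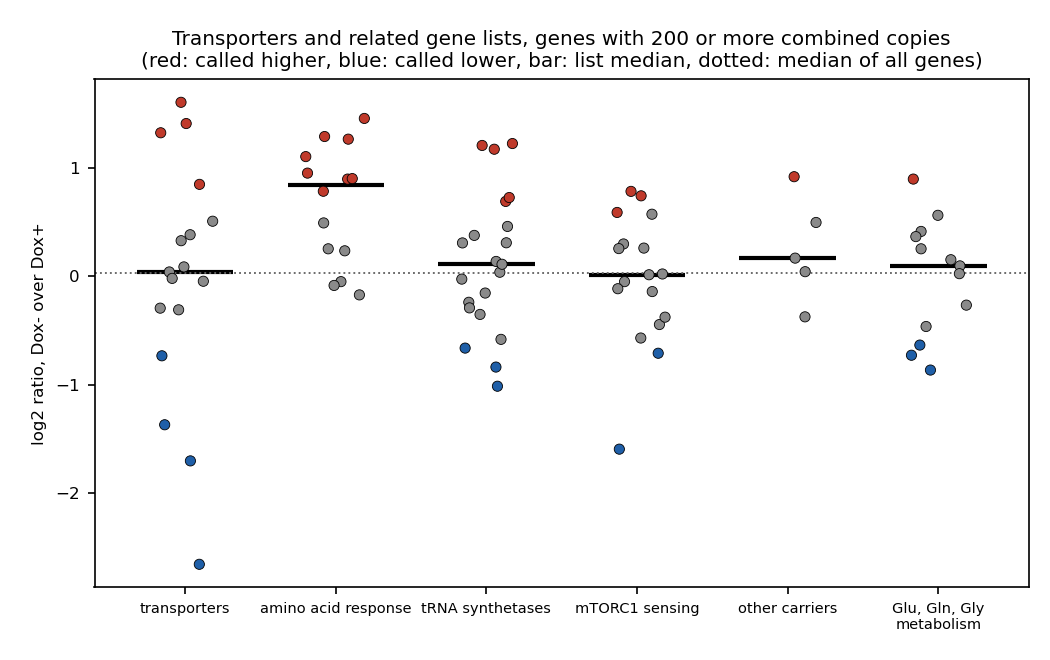
The log2 ratio, Dox- over Dox+, of the genes with at least 200 combined copies (points, red called higher, blue called lower) for the transporters and 5 related lists, with the median of each list (bar) and of all genes (dotted line, 0.03). The amino acid response list has a median of 0.84 and no gene called lower, while the transporters spread both ways about a median of 0.04.

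Among the genes that use or sense amino acids, calls were made in both directions. Of 21 tRNA synthetase genes and cofactors with enough copies, 5 rose and 3 fell, with a median log2 ratio of 0.11. These are 23.8% and 14.3% of the list, against 15.2% and 14.7% of all genes, and Farsb was a further gene called lower under TMM and median-ratio scaling. None of the 8 was called with an assumed coefficient of variation of 0.2, where 2.25% of all genes were called higher and 2.66% lower. Nars, Cars and Eprs, which charge asparagine, cysteine, and glutamate with proline, rose 2.31-fold (2.06 to 2.60), 2.34-fold (1.94 to 2.83) and 2.26-fold (1.95 to 2.62). Lars, which charges leucine, fell 2.02-fold (1.75 to 2.34), from 586 to 283 copies, and Kars, for lysine, fell 1.79-fold (1.65 to 1.94), from 1588 to 867. Vars had 1267 and 969 copies and was not called.

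Of 17 genes of amino acid sensing by mTORC1 with enough copies, 3 rose (Sec13, Tsc2 and Nprl3) and 2 fell (Sesn1 and Sesn3), with a median of 0.01, beside 15.2% and 14.7% of all genes. Tsc2, at 1.5-fold, was no longer called under TMM or median-ratio scaling and Mlst8 was then called lower, which gave 2 higher and 3 lower. Sesn1, which holds mTORC1 back when leucine is low, fell from 316 to 102 copies, 3.02-fold (2.41 to 3.82). Sec13, a subunit of the GATOR2 complex and of the COPII coat, rose from 760 to 1242 copies, 1.67-fold (1.53 to 1.83). Eif4ebp1 had 583 and 550 copies and Rheb, the activator of mTORC1, 478 and 559.

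Of 21 carriers of amino acids and peptides outside the 7 families, 16 were found and 5 had enough copies. The mitochondrial aspartate and glutamate carrier Slc25a12 rose from 85 to 157 copies, 1.89-fold (1.44 to 2.49), and none of the 5 fell. That is 20% called higher, beside 15.2% of all genes called higher and 14.7% lower. Among these 5, Slc25a38 had 494 and 372 copies, Slc25a22 299 and 412, and the peptide transporter Slc15a2 300 and 329. In the list for glutamate, glutamine and glycine metabolism, 1 of 13 genes with enough copies rose, which was Asns, and 3 fell. These are 7.69% and 23.1% of the list, against 15.2% and 14.7% of all genes. No gene of this list or of the other carriers was called with an assumed coefficient of variation of 0.2. Of all genes, 2.25% were then called higher and 2.66% lower. The genes that fell were Arg2, the mitochondrial arginase, from 295 to 158 copies, Abat, which breaks down GABA, from 360 to 212, and Asnsd1 from 385 to 242. Oat had 947 and 1028 copies, Glul, the glutamine synthetase, 1092 and 773, and Glud1 800 and 1007.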

How the data were processed

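Uterine RNA of 1 Dox+ pool and 1 Dox- pool was measured by digital gene expression tags. The authors removed adaptor-only, low quality and single-copy tags, aligned the rest to mouse mm9 reference transcripts and deposited the unambiguous tag count of each gene. CASAVA is named in the submitters' processing notes, and the aligner is not given in the sources used here. The protocol label mentions fragmentation, the paper tags, and this was not resolved, so copies of different genes were not ranked by length. The deposited TPM is the count per 1000000 clean tags, computed by the authors with no correction for length. It reads 0.01 where no tag was counted. The clean tags were recovered here from count and TPM, and they returned the 14050 and 13948 TPM values above a count of 0 after rounding. The deposited log2 ratio, the ratio and its inverse, and the P-value and FDR, are the authors' own comparison and were not used.

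The two-sided Audic-Claverie test was run on all 14678 genes with Benjamini-Hochberg adjustment, and a call needed at least 200 combined copies, an FDR below 0.05 and a 1.5-fold difference. Intervals are exact Clopper-Pearson intervals at 95%, taken on how the tags of a gene divide between the libraries. Intervals for ratios of gene pairs are exact conditional odds ratio intervals. Both cover counting error only. For folds and calls, a count below 3 was set to 3 copies, which makes the fold a bound. For Slc7a3, with 2 copies in Dox+, the ratio of the counts as they stand was printed as well. The members, the 5 related lists, the 8 marker lists and the tests were chosen with earlier results of these data known. Each member was named with its copies, and of each other list the genes called with a fold of at least 2 and the 3 with the most copies, apart from those named as exceptions or where a count was 5 or fewer. Gene positions are from GENCODE on NCBIM37, the assembly of mm9, for 44 of the 45 members, and promoters from RefSeq on GRCm38.p6. The scripts were tested on simulated data. Python 3.11.15, scipy 1.17.1, R 4.3.3 and edgeR 4.0.16 were used. The quasi-likelihood test of edgeR and DESeq2 need replicates and could not be fitted. The 14 alternatives changed library size, filter, test, threshold or pseudocount.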

Additional observations from a re-analysis of the deposited data

How the results depend on the processing

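The 8 members called kept their calls under scaling to the counted tags, TMM and median-ratio size factors, a minimum of 100, 20 or 0 combined copies, Fisher's exact test, an FDR below 0.001, a pseudocount of 1, an absolute log2 ratio above 0.5, and edgeR's negative binomial exact test with an assumed coefficient of variation (CV) of 0.1 between pools. The scalings moved the median log2 ratio of all genes by less than 0.1, and that of the members lay between 0.01 and 0.08 over all 14 alternatives. The variation between pools is not known with 1 library per group. With a CV of 0.2, 3 members were called higher and 2 lower (Slc7a11, Slc7a1, Slc38a2, Slc7a2 and Slc6a2), where 147 and 174 of all genes were. With a CV of 0.4, 0 members were called higher and 0 lower, beside 16 and 17 of all genes. Among the members with at least 200 combined copies and a 1.5-fold difference, only Slc6a2 then had an unadjusted p under 0.05 in edgeR. Members with fewer copies were not looked at in this way. At a fold of at least 2, 6 of the 8 remained, without Slc7a5 and Slc6a6, and 302 genes were higher and 368 lower. With at least 20 combined copies 6 members were higher and 7 lower, beside 1925 and 1887 genes, and with no minimum 7 and 7, beside 2044 and 2077. With an absolute log2 ratio above 0.5, Slc7a6 was called higher as well. No paired analysis was possible because each group has 1 library.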

Other observations

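Several genes beside the carriers lay under the minimum of 200 combined copies with large ratios, and they were picked out after their values were seen. Trib3, a feedback inhibitor of ATF4, had 7 copies in Dox+ and 119 in Dox-, 17.4-fold more (95% counting interval 8.19 to 44.2). Chac1, an enzyme that degrades glutathione and a target of ATF4, had 4 and 23 copies, 5.89-fold (2.01 to 23.4), and Pycr1, of proline synthesis, had 0 and 20, at least 6.83-fold more when the count of 0 was set to 3, a floor that leaves out the counting error of the 20 copies. The lower limit of the counting interval was 5.06. Ddit4 and Stc2, of the stress response, had 14 and 46 and 19 and 63 copies. Cth, the enzyme that makes cysteine from cystathionine and a member of the same list, had 66 and 27 copies, 2.39-fold fewer in Dox- (1.5 to 3.89).

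Arg1, the cytosolic arginase, which uses the arginine that Slc7a1 and Slc7a2 carry, had 9 copies in Dox+ and 98 in Dox-, 11.2-fold more (5.64 to 25.1), while the mitochondrial arginase Arg2 fell 1.82-fold (1.5 to 2.23). Gcsh, a protein of glycine cleavage, had 7 and 91 copies, 13.3-fold more (6.21 to 34.1). Of the GTPases and their regulators that tie lysosomal amino acids to mTORC1, Fnip1 had 12 and 45 copies, Flcn 59 and 121, and Rragb 30 and 9.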
